A study of Arabidopsis thaliana with 21 samples.

Results

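Binding of *At*GRP7-GFP in the subjective evening (LL36) was compared with binding in the subjective morning (LL24). The comparison used the 8 *At*GRP7-GFP iCLIP libraries among the 21 libraries of the series, chosen by genotype and time label: 5 from LL36 and 3 from LL24. iCLIP crosslinks a protein to RNA in living tissue with UV light, precipitates the protein and reads out the base at which reverse transcription stopped. All 8 libraries came from 1 genotype, *AtGRP7::AtGRP7-GFP* in the *grp7-1* mutant, in which the fusion protein is expressed from the *AtGRP7* promoter with the 5′ UTR, intron and 3′ UTR of the gene. Aerial tissue of 18-day-old plants was used. Days and nights of 12 h each at 20 °C for 16 days came before the release into continuous light, and UV at 254 nm with 500 mJ/cm2 was given 24 h or 36 h after it. Plants with GFP alone in Col-0 (3 libraries at LL24, 5 at LL36) and plants with *At*GRP7 R49Q-GFP in *grp7-1*, whose RNA-binding domain carries a point mutation (3 at LL24, 2 at LL36), served as controls. The tagged protein stood in for the endogenous one, so crosslinks on *AtGRP7* itself were crosslinks on transgene RNA or on RNA of the mutant allele. The libraries of the 2 times were made as separate experiments, with reads of 50 or 100 nt, so that time and experiment cannot be told apart. The labels describe the libraries of a group as separate samples without naming what separates them. The study calls those of LL36 independent biological replicates and bulked several plants for each sample. The p-values measure the spread between these libraries. How much fusion protein was present at each time was not measured here.

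*At*GRP7 is a glycine-rich RNA-binding protein whose transcript and protein oscillate under the circadian clock, with a maximum late in the day. It acts downstream of the core oscillator: it binds its own pre-mRNA and that of its paralogue *AtGRP8* and shifts them to splice forms that are degraded, which closes a negative feedback loop. In *Arabidopsis* leaves a large share of the transcriptome cycles, with chlorophyll-binding and flavonoid genes tending to peak in the first part of the day and many cold-regulated and dormancy-associated transcripts in the second.

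The measure used throughout was the share of a gene, the crosslinks listed in that gene as a percentage of all crosslinks listed in the library. A crosslink here is a unique read that starts next to a listed position, and only positions that passed the false discovery rate test of the authors within their library were listed. The 3 LL24 libraries held 45942, 98235 and 27291 crosslinks and the 5 LL36 libraries 340381, 402170, 109755, 122202 and 208026. A gene that is not listed is therefore not a measured 0, but it entered the tests of gene shares with a count of 0. For genes without a listed site at 1 of the times, the p-values rest on these counts. Shallow libraries miss weak genes. Of the 266 genes with a mean LL36 share of 0.02 to 0.05%, 141, 207 and 99 were listed in the LL24 libraries. Of the 41 genes at 0.5% or more, 39, 40 and 39 were. Log2 shares of the 270 genes tested that were listed in all 8 libraries correlated across genes at r = 0.80 to 0.83 between LL24 libraries, 0.88 to 0.99 between LL36 libraries and 0.69 to 0.83 between libraries of different times; genes are not independent replicates. A change of share can come from the amount of a transcript, the number of cells that hold it or the binding per transcript. Shares are parts of the library sum, so the share of a gene also moves when other genes change. These sources cannot be told apart here.

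Of 4641 genes with a listed position, 506 had a mean share of at least 0.02% and were tested. These 506 genes held between 82.9 and 96.4% of the crosslinks of each library. The quasi-likelihood test of edgeR on crosslink counts, with library sums as the scale and Benjamini-Hochberg adjustment over the 506 genes, called 158 genes (31.2%) at an adjusted p of 0.05. Of these, 95 (18.8%) were higher at LL36 and 63 (12.5%) higher at LL24. With DESeq2 the split was 146 to 59. Together, the 95 genes took 5.21 to 6.06% of the crosslinks at LL24 and 19.3 to 20.8% at LL36. The 63 genes took 45.0 to 54.7% at LL24 and 22.3 to 27.2% at LL36. These sums describe genes chosen by the same values.

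Shares of all LL36 libraries lay above, or all below, those of the LL24 libraries in 213 of the 506 genes (42.1%), 147 (29.1%) upward and 66 (13.0%) downward. Such a gene reaches p = 0.0357 in the two-sided exact permutation test, the smallest value that the 56 assignments of 8 libraries allow, before any adjustment over genes. The direction of the calls depended on which genes entered. Among genes of at least 0.1% mean share, 41 were called higher at LL36 and 46 higher at LL24, and among the 270 genes listed in all libraries 24 and 51. The median log2 change was 0.58 over the 506 genes and -0.07 over the 270. Of the 95 genes higher at LL36, 33 were listed in no LL24 library and 24 in all 3. LL24 replicate 2 and LL36 replicate 3 are close in depth, and 41 of the 95 genes were unlisted in the former and listed in the latter. Both libraries were used to call the 95 genes, so this count is partly fixed by that choice and is no check of the calls. Of the 63 genes higher at LL24, 6 were listed in no LL36 library and 51 in all 5. In every one of the 8 fits without 1 library, 73 of the 95 and 46 of the 63 genes were called again.

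**Figure D1:**
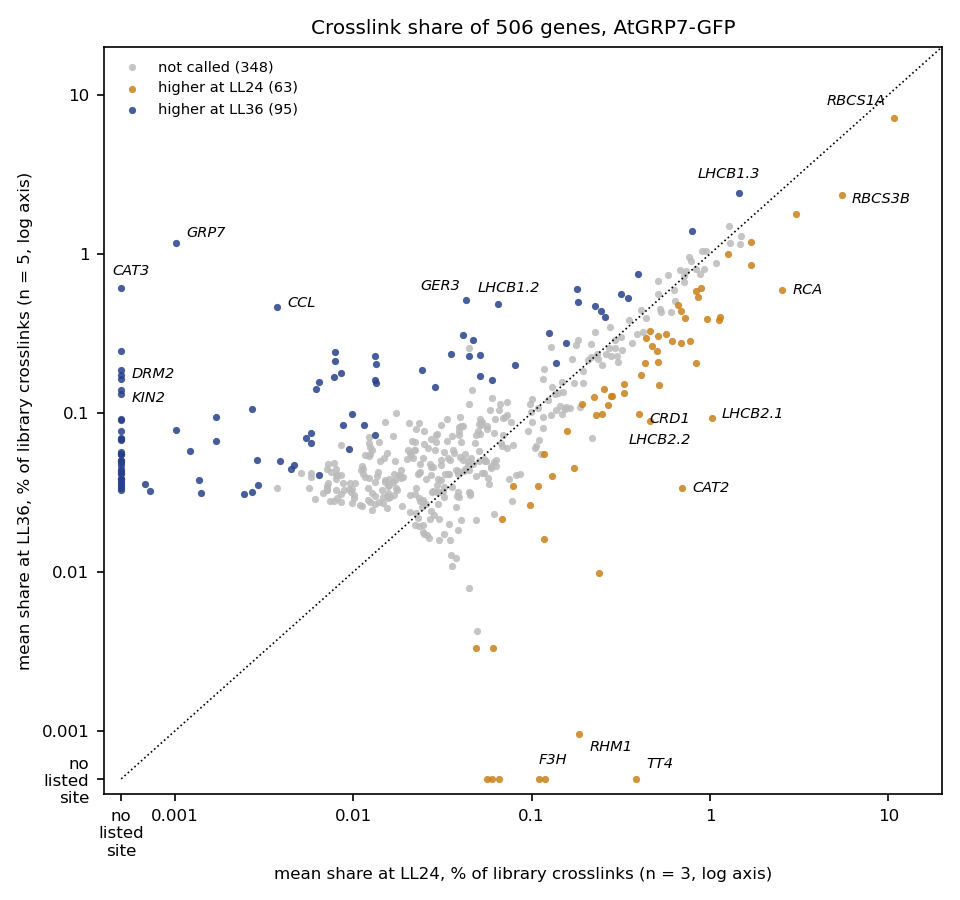
Mean crosslink share at LL36 (vertical, n = 5) against LL24 (horizontal, n = 3) for the 506 genes tested, in percent of the library on log axes; genes without a listed site at one time sit on the outer line, and the dotted line marks equal shares. The 95 genes in blue were called higher at LL36 and the 63 in orange higher at LL24; *GRP7*, *CAT3* and *CCL* lie far above the line and *TT4*, *CAT2* and *LHCB2.1* far below it.

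*AtGRP7* (AT2G21660) itself was bound in the evening. Its share was 1.00, 1.09, 1.16, 1.43 and 1.14% in the 5 LL36 libraries, whereas at LL24 only replicate 2 listed it, with 3 crosslinks or 0.00305%. The groups were far apart, and the difference was called (adjusted p = 4.83e-07, edgeR). In LL24 replicate 2 and LL36 replicate 3, the pair of like depth, *AtGRP7* had 3 and 1272 crosslinks. At LL36, 50.3% of the crosslinks placed in *AtGRP7* were in the 3′ UTR, 29.5% in coding exons, 13.9% in the intron and 6.34% in the 5′ UTR. The GFP-only controls listed 21 crosslinks on *AtGRP7* at LL36 and *At*GRP7 R49Q-GFP 13, and neither control listed any at LL24.

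*AtGRP8* (AT4G39260, CCR1 in RefSeq), the closest paralogue, gave 0.0896, 0.0870, 0.0410, 0.0622 and 0.107% at LL36 and was listed in none of the LL24 libraries (adjusted p = 0.000422, edgeR). Its 999 placed crosslinks at LL36 were split between the 3′ UTR with 46.5%, coding exons with 30.7% and the 5′ UTR with 22.8%, with none in its intron. Of 5 glycine-rich RNA-binding protein genes on the list, *AtGRP7* and *AtGRP8* passed the share filter. Both passed it through their LL36 shares, so that a count of calls says nothing about the family. GR-RBP2 was listed in 1 LL24 and 4 LL36 libraries at 0.0174% or less, below that filter.

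Transcripts of clock output and sugar starvation formed another list. The share of *CCL* (AT3G26740, CCR-LIKE) was 0.417, 0.440, 0.333, 0.575 and 0.549% at LL36 and 0.0112% in 1 LL24 library, without a listed site in the others (log2 change 6.30 ± 0.60 (SE), adjusted p = 4.59e-05, edgeR). *DRM2* (AT2G33830), a dormancy- and auxin-associated gene, reached 0.165, 0.164, 0.153, 0.198 and 0.257% at LL36 and was not listed at LL24 (adjusted p = 2.99e-05, edgeR). The related *DYL1* and the YGL and LRDR motif protein gene AT3G15450 had lower shares of 0.0310 to 0.0380% and 0.02004 to 0.0622%, again without a listed site at LL24. *FER1*, which encodes the iron store ferritin, rose from 0.0234% in 1 LL24 library to 0.108 to 0.244% (adjusted p = 0.00452, edgeR). *AILP1* was called as well (0.0740 to 0.118% at LL36, 0.0295% in LL24 replicate 2, adjusted p = 0.0359, edgeR). In all, 6 of the 7 tested genes on the list of clock output and sugar starvation were called higher at LL36 and none higher at LL24, beside 18.8 and 12.5% of all genes tested; 11 genes were on the list. None of the 7 had a mean LL24 share of 0.02%, so all passed the filter through LL36, and the count supports no statement about the list. *FAD2* was the seventh (0.02004 to 0.0587% at LL36, 0.0255% in 1 LL24 library, adjusted p = 0.185, edgeR). *HSPRO2*, on the list but below the filter, had 0.0662% in LL24 replicate 2 alone of the LL24 libraries and at most 0.0316% at LL36.

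Genes of the oscillator itself were barely crosslinked. Of 29 clock genes, 15 had a listed site in any library, and 2 passed the filter: *LUX*, a component of the evening complex, listed in 2 LL24 libraries at up to 0.0305% and with 0.0163 to 0.0702% at LL36, and *COR27*, with 0.0285 to 0.0403% and 0.0264 to 0.0793%. Neither was called (adjusted p = 0.383 and 0.701, edgeR). The morning genes *CCA1* and *LHY* were listed in LL24 replicate 2 alone, at 0.00814 and 0.00305%, and the evening genes *TOC1*, *GI* and *ELF4* in LL36 libraries alone, at no more than 0.0196%. *PRR5*, *ZTL*, *RVE4*, *COR28*, *JMJD5*, *LWD1* and *TIC* were also listed in LL36 libraries alone, and *LNK2* in LL24 replicate 1 alone. The LL36 libraries are the deeper ones and shares this low are often unlisted at LL24, so these listings give no phase.

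The base with the highest mean share of crosslinks in each gene was taken as its summit, and 58 of the 59 summits of the genes looked at one by one were uridines. The windows of 21 bases around the summits of transcripts gained at LL36 are given because they are the strongest sites of these RNAs in the evening. Sequences are from the RefSeq genome, positions are those of TAIR10, and the capital marks the crosslinked base.
GRP7: uauuuugguaUcuggaaacgu
CCL: cuacaagucuUuguaaccacu
DRM2: uuuuuacuguUcgguaauauu
CAT3: ugcuccagucUccaacaacau
KIN2: cguuuggaacUuuaaguuuaa
PORB: acgauaguuuUcuucagcaau
The *AtGRP7* window (chr2:9265326-9265346, minus strand) is in the 3′ UTR, as are those of *CCL* (chr3:9828504-9828524, plus strand), *DRM2* (chr2:14309539-14309559, minus strand) and *KIN2* (chr5:5212604-5212624, plus strand). The *CAT3* window (chr1:7144257-7144277, plus strand) is in a coding exon and the *PORB* window (chr4:13725598-13725618, plus strand) in the 5′ UTR. At the *AtGRP7* summit the LL36 libraries held 120, 153, 55, 95 and 96 crosslinks and the LL24 libraries none that were listed. Neither control listed a crosslink on *CCL*, *DRM2*, *KIN2* or *PORB* at either time. At LL36 the controls held only 1210 (*At*GRP7 R49Q-GFP) and 1216 (GFP alone) crosslinks in all, so genes of such shares could go unlisted there.

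The catalase transcripts differed in direction. Catalases remove hydrogen peroxide, *CAT2* mainly that of photorespiration. *CAT2* (AT4G35090) had shares of 0.660, 0.639 and 0.781% at LL24. At LL36 it had 0.0588, 0.0465, 0.0273% in replicates 1 to 3, no listed site in replicate 4 and 0.0356% in replicate 5. The fall was 20.6-fold in mean share (log2 change -4.31 ± 0.69 (SE), adjusted p = 0.000984, edgeR), with no overlap between the times. *CAT3* (AT1G20620) had 0.551, 0.567, 0.550, 0.782 and 0.622% at LL36 and no listed site in any LL24 library (adjusted p = 1.74e-06, edgeR). *CAT1* stayed below the filter, with at most 0.00735% at LL36. The summed share of the 3 genes was 0.639 to 0.781% at LL24 and 0.585 to 0.782% at LL36, ranges that overlap. The controls had few crosslinks on them: *At*GRP7 R49Q-GFP gave 47 on *CAT2* and 0 on *CAT3* at LL24, and 0 and 7 at LL36, and GFP alone gave 0 and 7 at LL24 and 3 and 0 at LL36.

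Cold-regulated transcripts encode, for the most part, small hydrophilic or membrane proteins that protect cells in the cold. Of 13 genes on the list 6 were tested, and 5 were called higher at LL36 and none higher at LL24, beside 18.8 and 12.5% of all genes tested. Only 1 of the 6 had a mean LL24 share of 0.02% or more, so the others passed the filter through LL36, and the count supports no statement about the list. *KIN2* (AT5G15970) reached 0.134, 0.129, 0.216, 0.165 and 0.170% at LL36, *COR15B* 0.0303 to 0.0925% and *RCI2A* 0.0393 to 0.137%, all without a listed site at LL24. The dehydrin gene *ERD14* was listed in all 8 libraries, with 0.0131, 0.0143 and 0.00733% at LL24 and 0.0799, 0.0634, 0.0820, 0.0843 and 0.110% at LL36 (7.27-fold, adjusted p = 0.000956, edgeR). *COR413-PM1* was 0.160 to 0.213% at LL36 and at most 0.0479% at LL24 (adjusted p = 0.00547, edgeR). *KIN1*, which is nearly identical to *KIN2* in its coding part, stayed below the filter (0.00721 to 0.0337% at LL36, 0.0239 and 0.0132% in 2 LL24 libraries). Only uniquely mapping reads were kept by the authors, so how reads are divided between such close copies is uncertain. COR15A was not called (adjusted p = 0.224, edgeR).

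Further genes gained at LL36 lay outside these groups. *PORB* (AT4G27440), a light-dependent protochlorophyllide oxidoreductase of chlorophyll synthesis, had 0.108, 0.105, 0.0875, 0.189 and 0.167% at LL36 and no listed site at LL24 (adjusted p = 0.000123, edgeR). Other genes without a listed site at LL24 were AT1G13930 (0.218 to 0.310%), AT3G62550 (0.148 to 0.199%), *MEE14* (0.114 to 0.183%) and AT1G29070, which encodes a ribosomal protein of the L34 type (0.0738 to 0.115%). Genes listed in all 8 libraries gained as well. *GER3*, a germin, rose from 0.0718, 0.0346 and 0.0220% to 0.489, 0.472, 0.519, 0.507 and 0.570% (adjusted p = 3.14e-05, edgeR), with a higher value in every LL36 library. *CP12-2*, whose product links enzymes of the Calvin-Benson cycle in the dark, rose from 0.0435, 0.0438 and 0.0660% to 0.225, 0.204, 0.260, 0.202 and 0.258% (4.50-fold, adjusted p = 0.000123, edgeR), while *CP12-1* was not called (adjusted p = 0.939). The lipid-transfer protein gene AT2G45180 rose 3.34-fold, with 0.125 to 0.208% at LL24 and 0.583 to 0.624% at LL36 (adjusted p = 7.86e-05, edgeR).

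**Figure D2:**
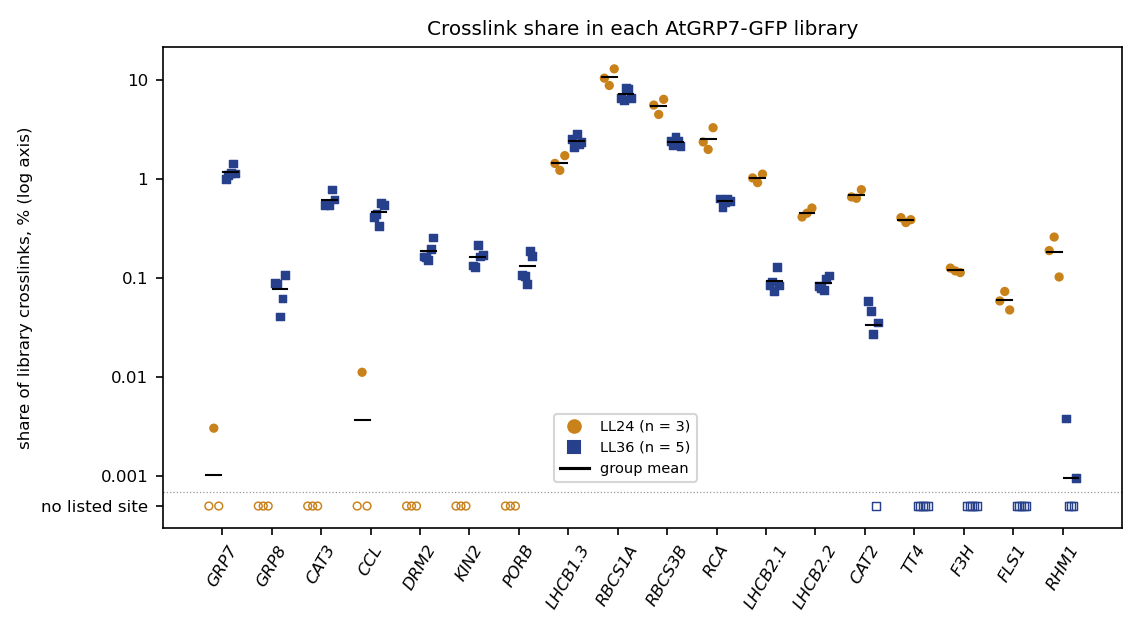
Share of library crosslinks (log axis) of 18 genes in each of the 3 LL24 libraries (orange circles) and 5 LL36 libraries (blue squares), with group means as bars; open symbols on the lowest line mark libraries without a listed site. The first 8 genes are higher in every LL36 library and the last 10 higher in every LL24 library, with *AtGRP7* at 1.00 to 1.43% and *TT4* at 0.363 to 0.407%.

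At LL24, genes of flavonoid synthesis stood out. Flavonoids are phenylpropanoid pigments that shield leaves from UV light. The group was put together after its values had been seen and is therefore given as a description. *TT4* (AT5G13930), which encodes chalcone synthase, the first enzyme of the pathway, had shares of 0.407, 0.363 and 0.388% at LL24. None of the LL36 libraries, the deepest of which held 402170 crosslinks, listed a site in it (adjusted p = 1.55e-05, edgeR). *F3H* (flavanone 3-hydroxylase) had 0.126, 0.118 and 0.114%, *FLS1* (flavonol synthase) 0.0588, 0.0733 and 0.0476% and *CHIL*, a chalcone isomerase-like protein that helps chalcone synthase, 0.0479, 0.0764 and 0.0440%, all without a listed site at LL36. *RHM1*, which makes the rhamnose attached to flavonols, fell from 0.189, 0.260 and 0.103% to 0.00382% in LL36 replicate 1 and 0.000961% in replicate 5, with no listed site in the others. Of 14 genes of the pathway, 7 had a listed site and 5 passed the filter. The glucosyltransferase genes *UGT78D1* and *UGT78D2*, below the filter, were listed in 2 and 1 LL24 libraries at up to 0.0392 and 0.00305%, and *UGT78D1* also in LL36 replicate 2 at 0.00249%. The summed share of the 14 genes was 0.696 to 0.920% at LL24 and at most 0.00382% at LL36. *At*GRP7 R49Q-GFP plants had 31 crosslinks on *TT4* and 13 on *CHIL* at LL24 and none at LL36.

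The summit windows of genes higher at LL24 are given for comparison, with the same marking.
TT4: uuguuugguuUcggaccaggu
F3H: uuauguucuuUcgaaucauaa
CHIL: cgauauuguuUcucuaagauc
CAT2: uuguugugucUcucguuuauc
LHCB2.1: uguauuugcuUcauaaucucu
RCA: uuuuguucccUuuuuuuuuuu
The *TT4* window (chr5:4489973-4489993, plus strand) is in a coding exon, those of *F3H* (chr3:19026753-19026773, plus strand), *CAT2* (chr4:16700755-16700775, minus strand), *LHCB2.1* (chr2:1823420-1823440, minus strand) and *RCA* (chr2:16570833-16570853, minus strand) are in 3′ UTRs, and that of *CHIL* (chr5:1563404-1563424, plus strand) is in the 5′ UTR. In the *RCA* window, only uridines follow the crosslinked base. At LL24, *At*GRP7 R49Q-GFP listed 284 crosslinks on *RCA*, 77 on *LHCB2.1* and 47 on *CAT2*, and none on *F3H*. Other genes higher at LL24 were AT1G65490 (0.128, 0.0753 and 0.128%) and AT2G30766 (0.0610, 0.0407 and 0.0953%), both of unknown function and without a listed site at LL36, and *VTC2* of ascorbate synthesis (0.0610, 0.0774 and 0.0440% at LL24, at most 0.00769% at LL36).

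Rubisco small subunit genes, whose products form the CO2-fixing enzyme with the plastid-encoded large subunit, are expressed from several near-identical copies. *RBCS1A* (AT1G67090), which held the highest share at both times, had 10.4, 8.79 and 12.9% at LL24 and 6.60, 6.31, 8.32, 8.09 and 6.62% at LL36. All LL24 libraries lay above all LL36 libraries, though by a small margin (1.49-fold in the mean, log2 change -0.58 ± 0.14 (SE), adjusted p = 0.00977, edgeR). *RBCS3B* fell from 5.58, 4.48 and 6.37% to 2.42, 2.18, 2.66, 2.40 and 2.14% (2.32-fold, adjusted p = 5.82e-05, edgeR), and *RBCS2B* fell as well (1.44 to 2.04% at LL24, 0.735 to 0.965% at LL36). *RBCS1B* overlapped between the times (0.976 to 1.23% and 0.775 to 1.02%, adjusted p = 0.109, edgeR). *RCA* (AT2G39730), the activase that frees rubisco of bound sugar phosphates, changed more than any of them: 2.37, 1.99 and 3.29% at LL24 and 0.635, 0.522, 0.583, 0.637 and 0.604% at LL36, a 4.28-fold fall (log2 change -2.09 ± 0.16 (SE), adjusted p = 1.28e-05, edgeR). The 5 genes together held 17.7 to 25.7% of the crosslinks at LL24 and 10.6 to 13.6% at LL36. In *At*GRP7 R49Q-GFP plants, *RBCS1A* had 1186 of 9060 crosslinks at LL24 (13.1%) and 211 of 1210 at LL36 (17.4%), a share that was not lower at LL36, while with GFP alone it was 13.2 and 5.345%. *RCA* had 284 *At*GRP7 R49Q-GFP crosslinks (3.13%) at LL24 and no listed site at LL36. Single R49Q-GFP libraries held 7802 of the 9060 and 1176 of the 1210 crosslinks, so these percentages rest mainly on 1 library at each time.

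The window at the summit was identical in 3 of the small subunit genes and is shown because it bears on how reads were assigned.
RBCS1A: ugcaucaguuUcauugccuac
RBCS2B: ugcaucaguuUcauugccuac
RBCS3B: ugcaucaguuUcauugccuac
These windows lie in coding exons on the minus strand, at chr1:25048489-25048509, chr5:15381230-15381250 and chr5:15377528-15377548. Reads that cover only such shared sequence cannot be placed uniquely and were not kept by the authors. The split of crosslinks among the copies is therefore uncertain, and the sum over the genes lacks these reads as well. Whether this loss differed between the times was not tested.

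Genes of the light-harvesting antenna were called in both directions. These genes encode the chlorophyll-binding proteins of the photosystems, and LHCB1 and LHCB2 proteins form the mobile trimers of photosystem II. All 3 LHCB2 genes were higher at LL24. *LHCB2.1* had 1.03, 0.919 and 1.12% at LL24 and 0.0855, 0.0923, 0.0738, 0.130 and 0.0841% at LL36 (11.0-fold, log2 change -3.46 ± 0.19 (SE), adjusted p = 1.74e-06, edgeR). *LHCB2.2* fell, with 0.414 to 0.509% at LL24 and 0.0756 to 0.106% at LL36. Its summit window at LL36 was identical to that of *LHCB2.1*, so how crosslinks are divided between *LHCB2.1* and *LHCB2.2* is uncertain. *LHCB2.3* had 0.340, 0.343 and 0.0330% at LL24 and at most 0.0164% at LL36, and LL24 replicate 3 was low but above all LL36 libraries.

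Of 5 tested LHCB1 genes, 3 were called higher at LL36, 1 higher at LL24 and 1 not called. *LHCB1.3* (CAB1 in RefSeq), the antenna gene with the highest share, rose from 1.44, 1.22 and 1.72% to 2.53, 2.08, 2.87, 2.27 and 2.38% (1.66-fold, adjusted p = 0.00281, edgeR). Counted as listed sites instead of crosslinks, its log2 change was -0.86. *LHCB1.2* rose, with 0.00366 to 0.134% at LL24 and 0.416 to 0.621% at LL36 and *LHCB1.4* from at most 0.108% to 0.276 to 0.330%. *LHCB1.5* was not called (adjusted p = 0.381, edgeR). *LHCB1.1* was called higher at LL24 with overlapping libraries (0.163 to 0.308% and 0.102 to 0.179%, adjusted p = 0.0398, edgeR); it had the lowest correlation of crosslink positions between the times among the 94 genes with at least 50 crosslinks in each library (r = 0.10, against 0.40 within LL24 and 0.48 within LL36). *LHCB1.1*, *LHCB1.2* and *LHCB1.3* are near-identical neighbours, so their separate values are uncertain. Of the other tested antenna genes, *LHCB6* and *LHCA1* were called higher at LL24, with 1.44- and 1.46-fold differences, and *LHCB3*, *LHCB4.1*, *LHCB4.2*, *LHCB5*, *LHCA2*, *LHCA3* and *LHCA4* were not called. Over the list, 3 of 17 tested genes were called higher at LL36 and 6 higher at LL24, beside 18.8 and 12.5% of all genes tested. The summed share of its 21 genes overlapped between the times (10.1 to 11.6% at LL24, 9.40 to 11.2% at LL36).

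Photosystem subunits were called in both directions. Over all genes tested, 18.8% were called higher at LL36 and 12.5% higher at LL24, the shares to set beside the counts below. Of 13 tested photosystem I genes, 4 were called higher at LL24 (*PSAD2*, *PSAE1*, *PSAK* and *PSAL*) and 1 higher at LL36 (*PSAG*). *PSAK* fell, with 0.750 to 0.960% at LL24 and 0.488 to 0.561% at LL36 (adjusted p = 0.00205, edgeR). Of 12 photosystem II genes, *PSBR*, *PSBY* and *PSBS* were higher at LL24 and none higher at LL36. *PSBR* had 2.91, 2.44 and 3.81% and 1.56, 1.52, 1.94, 2.11 and 1.84% (adjusted p = 0.00452, edgeR). *PSBS*, the sensor of thylakoid acidity that switches on heat dissipation of excess light, fell 2.49-fold, with 0.631 to 0.725% at LL24 and 0.196 to 0.325% at LL36 (adjusted p = 0.000381, edgeR). The median log2 change of the list members listed in all libraries was -0.35 for photosystem I and -0.03 for photosystem II, beside -0.07 over all 270 such genes. Among electron transport and ATP synthase genes, *FD1* and *ATPC1* were called higher at LL24 and *FNR2* higher at LL36, of 8 tested. *FNR2* was listed in 2 LL24 libraries at 0.0896 and 0.0440% and reached 0.198 to 0.257% at LL36 (adjusted p = 0.0398, edgeR). Its paralogue *FNR1* was not called (adjusted p = 0.186, edgeR).

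Genes of carbon metabolism were called in both directions, and among all 270 genes listed in every library 24 were called higher at LL36 and 51 higher at LL24. Over all 506 genes tested the shares were 18.8 and 12.5%. Both tested carbonic anhydrase genes were higher at LL24: *CA1*, with 1.22, 1.03 and 1.19% at LL24 and 0.359, 0.388, 0.398, 0.435 and 0.429% at LL36 (2.85-fold, adjusted p = 1.5e-05, edgeR), and *CA2*, with a 1.56-fold difference. Of 13 tested Calvin-Benson genes 5 were higher at LL24, namely the aldolases *FBA1* and *FBA2*, the glyceraldehyde-3-phosphate dehydrogenase subunits *GAPA* and *GAPB*, and *SBPASE*, while *CP12-2* and the transketolase *TKL1* were higher at LL36. *FBA2* fell from 0.849, 0.790 and 0.671% to 0.272, 0.2499, 0.329, 0.280 and 0.284% (2.72-fold, adjusted p = 4.59e-05, edgeR). In photorespiration, which recycles the product of the oxygenase reaction of rubisco, *GLDP1*, *SHM1*, *GDCH* and *GOX1* were higher at LL24 of 11 tested, and *GLYK* was called higher at LL36 with overlapping libraries (0.00733% in 1 LL24 library, 0.00364 to 0.0499% at LL36). *GLDP1* fell, with 0.436 to 0.637% at LL24 and 0.0556 to 0.225% at LL36 (adjusted p = 0.00281, edgeR). In chlorophyll synthesis, *CRD1* was higher at LL24 in every library (0.411, 0.388 and 0.396% and 0.102, 0.112, 0.0802, 0.124 and 0.0711%, adjusted p = 7.86e-05, edgeR) and *CHLH* was called with overlapping libraries, opposite to *PORB*.

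**Figure D3:**
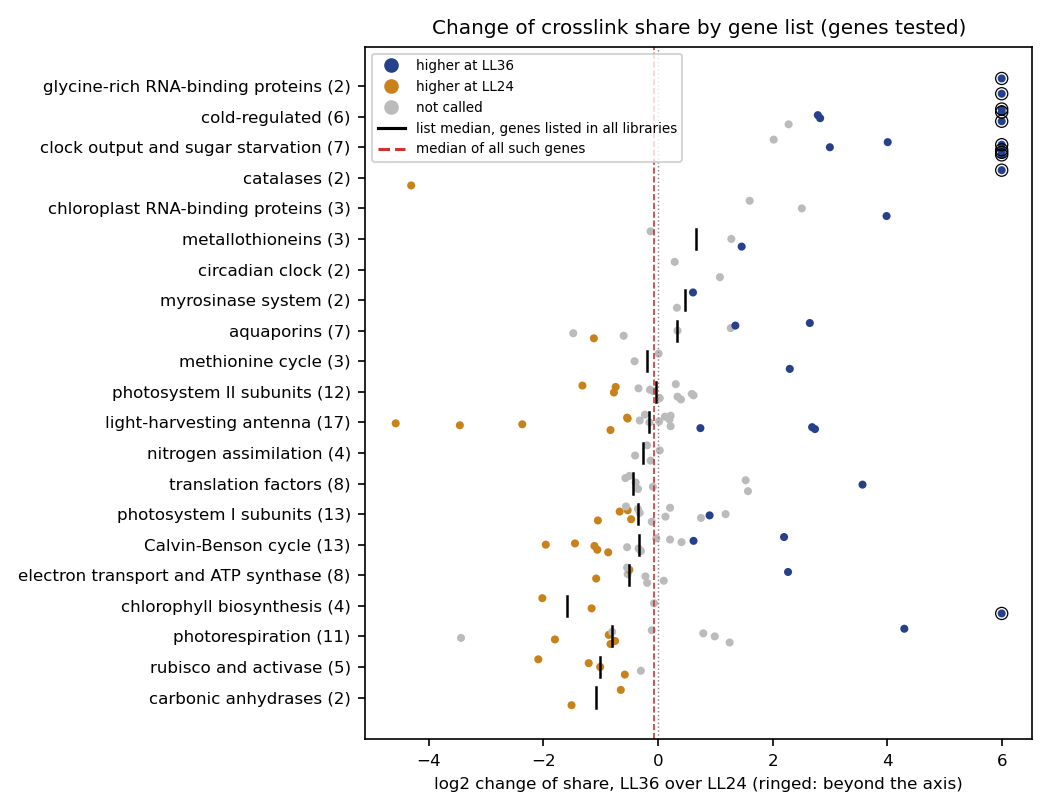
Log2 change of share between LL36 and LL24 from edgeR for the tested members of 21 gene lists with at least 2 tested members (number tested in brackets), coloured by call; black bars mark the medians of members listed in all 8 libraries (drawn for at least 2 of them), the red dashed line that of all 270 such genes (-0.07), and ringed points lie beyond the axis because one time had few or no listed sites. Rubisco and carbonic anhydrase genes lie on the LL24 side and the tested cold-regulated and clock output genes, most of which passed the filter through LL36, on the LL36 side, while the antenna genes spread to both.

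Of the remaining lists, aquaporins had 3 of 7 tested genes called, beside 31.2% of all genes tested. The tonoplast water channel genes *TIP1;2* (0.0697 to 0.162% at LL24, 0.274 to 0.361% at LL36) and *TIP2;1* (0.0110 to 0.0522% at LL24, 0.179 to 0.367% at LL36) were higher at LL36, and the plasma membrane channel gene *PIP1;2* was higher at LL24 (0.235 to 0.317% at LL24, 0.0993 to 0.160% at LL36), of 7 tested aquaporins. The metallothionein gene *MT2A* rose, with 0.169 to 0.191% at LL24 and 0.454 to 0.548% at LL36 (adjusted p = 5.56e-05, edgeR) and *ESM1* of the myrosinase system, with 0.285 to 0.377% at LL24 and 0.470 to 0.583% at LL36 (adjusted p = 0.0105, edgeR). Counted as listed sites, their log2 changes were -0.13 and -0.19. The call of *ESM1* was also lost without the filter on low shares (adjusted p = 0.134, edgeR). *LOS1*, an elongation factor, rose from at most 0.0327% to 0.147 to 0.179% and was the 1 gene called of 8 tested translation factors. *CP29A* was the 1 gene called of 3 tested chloroplast RNA-binding proteins (at most 0.0234% at LL24, 0.113 to 0.218% at LL36). None of these 3 had a mean LL24 share of 0.02%, so all passed the filter through LL36. *MAT4* was the 1 gene called of 3 tested in the methionine cycle (adjusted p = 0.0495, edgeR). *THI1* of thiamine synthesis was higher at LL24 by a 1.27-fold margin (adjusted p = 0.0482, edgeR).

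Several calls were lost in fits without 1 library. This happened without either LL36 replicate 1 or 2 for *PSAD2*, without any 1 LL36 library for *AILP1* (adjusted p = 0.0606 to 0.08, edgeR), and without LL24 replicate 3 or any 1 LL36 library for *FNR2* (0.0716 to 0.0884). *PSAG* lost its call without LL24 replicate 1 or any 1 LL36 library, and *PSAL* without any 1 library other than LL36 replicate 4 (0.0686 to 0.0967); the latter call was lost with DESeq2 as well (adjusted p = 0.0806). *TKL1* kept its call only without LL24 replicate 1. *LHCB1.1*, *GLYK*, *GDCH*, *ATPC1*, *PSAE1* and *THI1* lost theirs in 6 of the 8 fits without 1 library (highest adjusted p between 0.082 and 0.163), *SBPASE* and *MAT4* in 5 and *CHLH* in 4.

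No difference was called for several transcripts chosen for a closer view. *NIA2*, a nitrate reductase, had 0.202 to 0.284% at LL24 and 0.133 to 0.262% at LL36 (log2 change -0.13 ± 0.24 (SE), adjusted p = 0.714, edgeR). No gene of 4 tested in nitrogen assimilation was called, beside 31.2% of all genes tested. *PABP2*, a poly(A)-binding protein, had 0.0346 to 0.0550% and 0.0255 to 0.0375% (log2 change -0.50 ± 0.42 (SE), adjusted p = 0.404, edgeR). *TCH3* was below the filter, with 0.0112% in 1 LL24 library and 0.00182 to 0.0270% at LL36, as was *THIC*, with 0.0191 to 0.0341% at LL36 and no listed site at LL24. Of the immunity and touch genes, only *PR4* was tested (adjusted p = 0.95, edgeR). Among the 10 genes with the highest mean of the 2 group means, *PETE2*, *LHCA3* and *PSBX* were not called (adjusted p = 0.33, 0.264 and 0.121, edgeR), and all 10 were nuclear photosynthesis genes.

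The regions in which crosslinks fell did not differ between the times beyond the spread of the libraries. Of crosslinks placed in a gene model, 49.5 ± 3.32% (SD, n = 3) were in 3′ UTRs at LL24 and 49.8 ± 2.92% (SD, n = 5) at LL36. Coding exons held 38.0 ± 3.06% and 36.8 ± 3.79%, 5′ UTRs 10.0 ± 0.901% and 10.8 ± 1.44%, and introns 2.49 ± 0.471% and 2.57 ± 0.601%. The differences of 0.344, -1.20, 0.769 and 0.0847 percentage points were within the spread between libraries (adjusted p of 0.893 for all 4 regions, two-sided exact permutation test). Uridine was the crosslinked base for 66.9 ± 2.13% (SD, n = 3) of crosslinks at LL24 and 66.6 ± 2.33% (SD, n = 5) at LL36, a difference of -0.345 points (p = 0.857, two-sided exact permutation test).

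**Figure D4:**
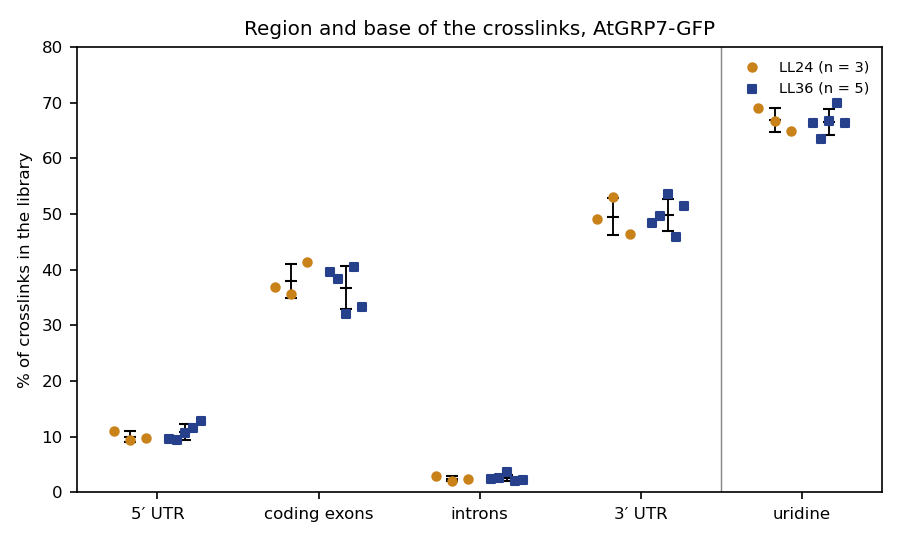
Percentage of placed crosslinks in 4 transcript regions and percentage of crosslinks at a uridine, for each LL24 (orange circles, n = 3) and LL36 library (blue squares, n = 5), with mean and SD in black. The 2 times overlap in every measure, with uridine at 64.9 to 69.1% at LL24 and 63.4 to 70.0% at LL36.

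Within single genes the 3′ UTR share of the crosslinks was compared for the 125 genes with at least 20 placed crosslinks in every library. In 19 genes (15.2%) the libraries of the times did not overlap, and in 18 of these the 3′ UTR share was higher at LL24. No gene passed after adjustment (0.00% of 125; adjusted p of at least 0.235, two-sided exact permutation test), and the design cannot give an unadjusted p below 0.0357. The 5 largest differences among the 19 were in AT2G45180, *RABE1b*, *GAPA*, *PSAO* and the peroxidase gene *PRXR1*. In AT2G45180, 0, 1.96 and 0% of the crosslinks were in the 3′ UTR at LL24 and 42.7, 45.2, 56.7, 11.1 and 28.6% at LL36. In *GAPA* the shares were 77.8, 65.8 and 100% at LL24 and 43.1, 45.4, 58.0, 45.7 and 49.7% at LL36. In *RABE1b*, a chloroplast elongation factor Tu, they were 77.6, 44.1 and 93.6% at LL24 and 32.7, 34.9, 38.9, 36.3 and 41.9% at LL36. In *PSAO* they were 96.4, 93.8 and 100% against 60.8, 64.5, 74.7, 69.2 and 84.3%, and in *PRXR1* 100, 93.8 and 90.3% against 64.5, 71.5, 70.0, 69.4 and 72.8%. Without LL24 replicate 2 or 3, 43 and 42 genes did not overlap. With fewer libraries separation arises more easily, so these counts are no check of the 19. The LL24 libraries are the shallower ones and list fewer positions per gene, and the part of depth in this shift was not tested.

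**Figure D5:**
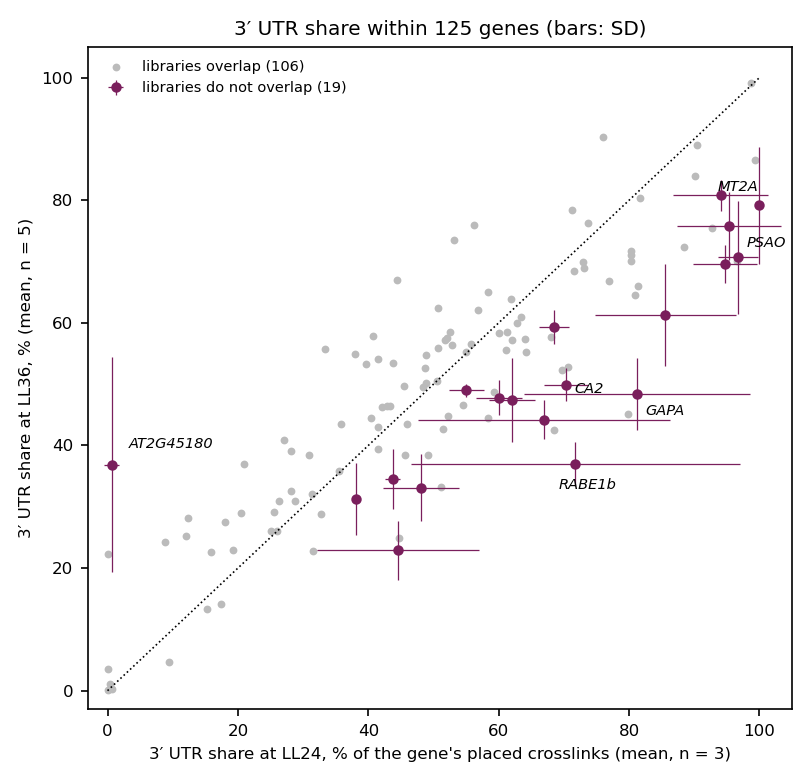
Mean percentage of a gene's placed crosslinks in its 3′ UTR at LL36 (vertical, n = 5) against LL24 (horizontal, n = 3) for 125 genes; genes whose libraries do not overlap are purple, with SD bars, and the dotted line marks equality. Of the 19 purple genes 18 lie below the line, and AT2G45180 lies above it.

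Positions within genes were compared for the 94 genes with at least 50 crosslinks in each library. The median over genes of the correlation of counts per position was 0.65 between LL24 libraries, 0.72 between LL36 libraries and 0.66 between libraries of different times, as a description across positions of the same gene. The summit was the same base at both times in 51 of the 94 genes and lay over 50 nt apart in 30. How often summits differ between libraries of the same time is not given, so these counts do not measure a shift with time. Over all genes, 10749 positions were listed in at least 2 of the 3 LL24 libraries and 19109 in at least 4 of the 5 LL36 libraries. The 7566 positions in both sets made up 70.4% of the former and 39.6% of the latter, and 95.2% of the LL24 positions occurred in at least 1 LL36 library. The LL36 libraries held 1182534 crosslinks and the LL24 libraries 171468, and the part of depth in these percentages was not tested.

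Promoters of the called genes were searched because transcripts that peak in the evening often carry the evening element, a binding site of the morning proteins CCA1 and LHY and their relatives. The window ran from 250 bases before to 50 after the annotated gene start, on both strands. The evening element AAAATATCT occurred in 13 of the 95 genes higher at LL36 (13.7%), in 2 of 62 genes higher at LL24 (3.23%), in 4.77% of 503 tested genes with an annotation and in 2.82% of all 27444 protein-coding genes. The 13 genes included *AtGRP7*, *AtGRP8*, *CCL*, *CAT3*, *PORB*, *MEE14*, *MT2A*, *TKL1* and *PEN3*; those at LL24 were *FLS1* and *ATPC1*. The G-box CACGTG occurred in 9.47% of the genes higher at LL36 and in 16.1% of those higher at LL24, against 11.7% of the tested genes; of the genes described here, *AtGRP7* and *KIN2*, higher at LL36, and *TT4*, *F3H*, *CHIL*, *LHCB2.3*, *CRD1*, *PSBR* and *RBCS2B*, higher at LL24, carried it. The CCA1-binding site core AAAAATCT was at 9.47, 9.68 and 8.15% in the same order, and the full CCA1-binding site was in no tested gene. A match is a description of these windows.

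The controls were summed over the same genes. In *At*GRP7 R49Q-GFP plants, genes called higher at LL24 took 44.4% of 9060 crosslinks at LL24 and 32.98% of 1210 at LL36, while genes called higher at LL36 took 3.499% and 15.04%. In GFP-only plants the genes higher at LL24 took 22.8% of 1578 crosslinks at LL24 and 8.96% of 1216 at LL36, and the genes higher at LL36 took 2.98% and 5.43%. Among genes called higher at LL24, *At*GRP7 R49Q-GFP at LL24 had 235 crosslinks on *PSBR*, 151 on *CA1*, 127 on *PSAL*, 126 on *RBCS2B* and 83 on *FBA2*, and none on *FLS1*, *RHM1* or *VTC2*. *LHCB1.3*, called higher at LL36, had 96. The study removed transcripts with significant control sites from its targets, while such genes were kept here. These counts are sums over the libraries of a group, and their part in the differences above was not tested.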

How the data were processed

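Arabidopsis iCLIP libraries were analysed as deposited, as counts of unique reads per crosslink position. Per the study's methods, the authors trimmed reads with cutadapt 1.9.1, removed PCR duplicates by random barcode, mapped uniquely with STAR 2.5.2a to TAIR10, took the base before the read start, and listed for each library only positions below a false discovery rate of 0.05. Weak genes of shallow libraries are therefore missing, not 0, although unlisted genes entered the tests of gene shares with a count of 0. Positions were assigned to genes and regions with the RefSeq annotation of TAIR10, counts were summed per gene and divided by the library sum. Genes with a mean share of at least 0.02% were tested with edgeR 4.0.16 (R 4.3.3) without normalization factors, and single values with a two-sided exact permutation test (Python 3.11.15, numpy 2.4.6, pandas 2.3.3). Tested on simulated data (506 genes, 200 changed), the fit recovered 85.8% of 2-fold and 100% of 4-fold changes and called 3.27% of unchanged genes. The simulated counts spread less between libraries than the real ones (fitted common dispersion 0.266) and had no listing threshold. These rates therefore do not hold for the real libraries. Library sums ranged from 27291 to 402170 crosslinks. Members and gene lists were chosen with earlier results of these data known. Named genes were those of a fixed panel, the 10 of highest share, the 10 largest non-overlapping called changes in each direction, the 5 largest within-gene differences and list members; further ones were added after values were seen. Alternatives were TMM, DESeq2 1.42.0, other filters, sites in place of crosslinks, a replicate block and leaving out libraries. No 2 libraries of a group agreed within sampling noise.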

Additional observations from a re-analysis of the deposited data

Results flagged for a closer look

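Of 61 groups of shares screened, 4 held a library whose gap to the nearest other library exceeded 0.71 of the range of its group, and chance gives about 1 in 20. The share of *COR27* was 0.07927% in LL36 replicate 3 and 0.02644 to 0.03764% in the other LL36 libraries. *LHCB1.2* stood at 0.6205% in the same library, against 0.416 to 0.4704% in the others. *RABE1b* was at 0.185% there as well, against 0.1176 to 0.1308%. *RHM1* was at 0.003819% in LL36 replicate 1 and at 0.0009614% or unlisted in the others. LL36 replicate 3 held 3.894% of its crosslinks in tRNA genes, the most of the 5 LL36 libraries.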

How the results depend on the processing

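The count of 158 genes was 163 with TMM factors (90 higher at LL36, 73 higher at LL24), 205 with DESeq2 (146 and 59, against 95 and 63), 218 without a filter (153 higher at LL36, 65 higher at LL24), 231 by listed sites, 90 at a mean share of at least 0.1%, 76 for genes listed in all 8 libraries and 39 with only LL36 replicates 3 and 4. Without 1 library it was 125 to 192. TMM lowered the median log2 change of all genes from 0.584 to 0.454. The 213 genes without overlap became 359 without a filter, 91 at 0.1% and 92 for genes listed in all libraries, and 214 to 277 without 1 library. Leaving out a library cannot make separate groups overlap, so the counts without 1 library could not fall and are no check of the 213. The same limit holds for 3′ UTR shares without 1 library. The 19 genes with separate 3′ UTR shares became 20 to 43. Counted as listed sites, *LHCB1.3* changed by -0.86, *ESM1* by -0.19 and *MT2A* by -0.13 on the log2 scale, none past the threshold of edgeR; the cause was not tested. By sites, *AILP1*, *LHCB1.2*, *LHCB1.4*, AT2G45180 and *CA2* lost their calls; *ESM1* lost its call without the filter, and *PSAL* with DESeq2 and with reproducible positions only. Without LL24 replicate 1 and LL36 replicate 3, a choice made after seeing the data, 156 genes were called. Region shares and the uridine share stayed short of the threshold in all alternatives run.

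In the labels, same-numbered libraries of the 2 times shared only a number. Correlations of their deviations were -0.0333, 0.178 and 0.138, beside -0.267 to 0.117 for libraries of different numbers among replicates 1 to 3. These values do not settle whether the libraries were paired. With the replicate block, 66 genes were called, 30 higher at LL36 and 36 higher at LL24. Depth limits weak genes: shares below about 0.05% were often unlisted at LL24.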
